A study of Homo sapiens with 4 samples.

Results

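The AP-1 and small MAF factors are the 10 genes FOS, FOSB, FOSL1, FOSL2, JUN, JUNB, JUND, MAFF, MAFG and MAFK. They were picked by name, 10 of the 25702 genes of the count tables, because AP-1 is a common partner of ERG and RUNX1. The rule used no measured value, but the genes were chosen with earlier results of these data known. Poly(A)-enriched RNA was sequenced from K562 cells, an established human chronic myeloid leukemia line, that had been transiently transfected with LeGO-iG2, either empty or carrying RUNX1::ERG. Each group had 2 biological replicates, with no other treatment. The plasmid also expresses GFP, and the methods do not say that RNA was taken from sorted GFP-positive cells, so the libraries may hold untransfected cells too.

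FOS and JUN proteins pair through a leucine zipper and bind the short DNA sites named TRE and CRE. JUN proteins can pair with each other, whereas FOS proteins need a JUN partner. These genes answer to growth factors and stress through MAP kinases, and in blood cells AP-1 takes part in myeloid and megakaryocytic gene expression. The small MAF proteins have a DNA-binding zipper but no activation domain of their own. They gain one by pairing with CNC factors such as NFE2, which K562 cells and other erythroid and megakaryocytic cells express.

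None of the 10 genes passed the test between RUNX1::ERG and the empty vector. The edgeR quasi-likelihood test, adjusted after Benjamini-Hochberg over 15394 genes, gave 0 of 10 an adjusted p under 0.05, against 4.79% of all genes tested (3.64% higher and 1.15% lower). At an unadjusted p under 0.05 there were 2 of 10, FOSL2 and JUND, against 18.0% of all genes tested. The DESeq2 Wald test and limma voom called 0 of 10 as well. They called 1204 of the 20312 genes with any count and 688 of the 15394 genes past the filter. The fitted log2 fold changes were above 0 for 9 of the 10, and their median was 0.35, beside a median of -0.0017 and 49.8% above 0 over all genes tested. The value of MAFK was the smallest and changed sign with limma voom and the GC and length correction. Both RUNX1::ERG libraries lay above both empty vector libraries for 4 of the 10 (FOSL2, JUNB, MAFF and MAFG), and for 25.1% of all genes tested. None of the 10 had both RUNX1::ERG libraries below, against 22.1% of all genes tested.

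The transfected genes were compared first as a check of the labels. Counts of ERG were 4 in either empty vector library but 80443 in RUNX1::ERG replicate 1 and 27218 in replicate 2. RUNX1 rose from 78.6 and 49.0 normalized CPM in the controls to 786 and 400.2, where normalized CPM means CPM after TMM scaling of the libraries. The libraries labelled RUNX1::ERG thus held the transcripts of both parts of the fusion, and replicate 1 held 2.52 times as much ERG as replicate 2. Library totals ran from 59695387 to 82352144 counts. Between 66.7% and 68.9% of the counts from 1 to 10 were even, for a reason that was not tested, and halving the counts left 0 of the 10 genes called. K562 erythroid markers were all detected, 9 of 9. Of these, 2 (TAL1 and EPOR) were called higher and 0 lower, against 3.64% and 1.15% of all genes tested. Fitted log2 fold changes were above 0 for 6 and below 0 for 3, TFRC (-0.57), GYPC (-0.40) and KLF1 (-0.12). Lists of lymphoid, macrophage, fibroblast, epithelial and platelet markers held 4 genes each, and 3, 2, 3, 2 and 2 were tested. The test called 0, 2 (CD14 and LYZ), 1 (COL1A1), 0 and 2 (PF4 and PPBP), all higher with RUNX1::ERG. COL1A1 was at 4.13 and 3.62 against 22.0 and 19.6 normalized CPM. The other fibroblast markers tested were not called, with log2 fold changes of 0.11 for COL1A2 and -1.09 for PDGFRB. Summed levels of the lists were 34.6 and 36.1 (empty vector) against 22.5 and 24.9 (RUNX1::ERG) normalized CPM for lymphoid, 7.21 and 10.4 against 22.2 and 20.8 for macrophage, 6.16 and 6.71 against 24.6 and 22.1 for fibroblast, 236 and 278 against 209 and 208 for epithelial, and 0.0332 and 0.113 against 28.8 and 28.1 for platelet genes. MS4A1 and LUM had 0 counts in every library, and MRC1, GP9 and TREML1 at most 2. CSF1R had at most 18 counts, and CDH1 and KRT5 at most 6, so that these genes were under the filter as well. The part of other cells in the values of the 10 genes was not tested, and in bulk RNA a change in the share of cells and a change of RNA per cell cannot be told apart.

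**Figure D1:**
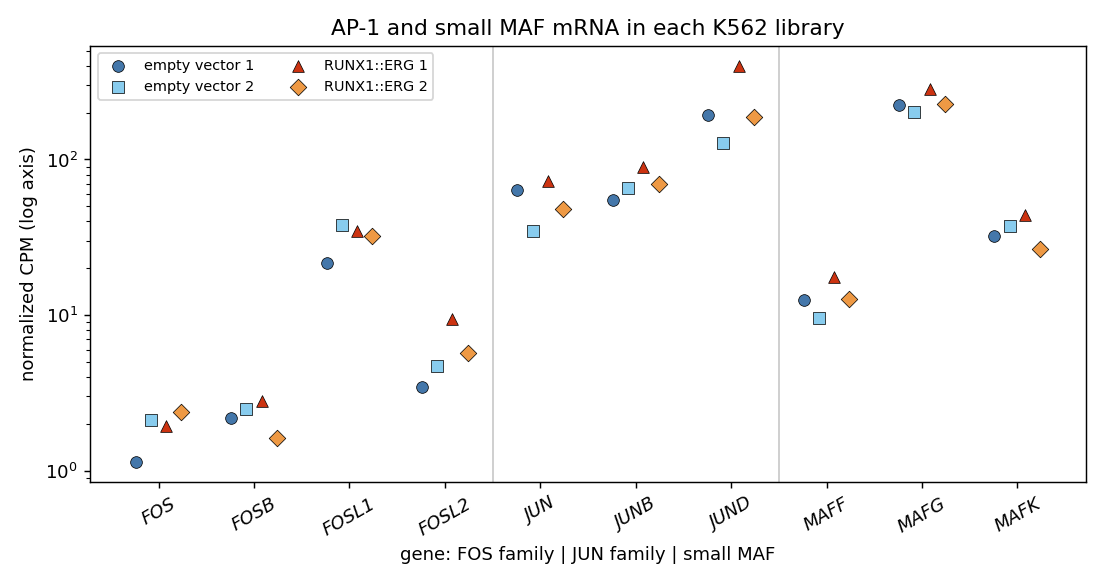
Normalized CPM (log axis) of each gene in each of the 4 libraries, 1 point a library, with the FOS family at the left, the JUN family in the middle and the small MAF genes at the right. JUND and MAFG were the most abundant, at 128 to 400.3 and 203 to 282, and FOS and FOSB the least, at 1.13 to 2.81.

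Compared per kb of transcript, JUND had the highest level in the empty vector libraries, at 83.2 ± 23.99 (SD, n = 2) normalized CPM per kb. MAFG followed at 42.03 ± 2.69, JUNB at 32.9 ± 4.38, FOSL1 at 17.5 ± 6.83, JUN at 15.0 ± 6.21, MAFK at 10.2 ± 1.06 and MAFF at 4.65 ± 0.877. FOS, FOSB and FOSL2 were lowest, at 0.767 ± 0.326, 0.619 ± 0.0601 and 0.610 ± 0.132 normalized CPM per kb. In this order, FOSL1 overlapped with JUN and JUN with MAFK, and FOS, FOSB and FOSL2 overlapped with one another, while each other gene lay above the next in both libraries. With RUNX1::ERG the order of the 7 highest by group mean was unchanged. FOSL1 again overlapped with JUN, and JUN was above FOSL1 in RUNX1::ERG replicate 1 (22.3 against 20.4). The range of MAFG now overlapped with that of JUNB, though within each library MAFG was above JUNB. The values were 55.8 against 49.2 in RUNX1::ERG replicate 1 and 44.8 against 37.9 in replicate 2. FOSL2 stood ahead of FOS at 1.13 ± 0.399 against 1.03 ± 0.150, which overlapped as well. K562 cells of both groups thus expressed far more JUN family than FOS family mRNA. The summed JUN family was 10.4 and 4.57 times the summed FOS family in empty vector replicates 1 and 2, and 11.9 and 6.99 times in RUNX1::ERG replicates 1 and 2.

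JUND is the JUN family member that many resting cells express. JUND (NCBI gene 3727, chromosome 19 of GRCh37, 18390504 to 18392432, minus strand) had 193 and 128 normalized CPM in empty vector replicates 1 and 2, and 400.3 and 186 in RUNX1::ERG replicates 1 and 2. RUNX1::ERG replicate 1 was the high library, and the groups overlapped, since RUNX1::ERG replicate 2 lay just below empty vector replicate 1. The log2 fold change was 0.87 (SE 0.31, 95% interval 0.19 to 1.55, edgeR adjusted p = 0.155). Without RUNX1::ERG replicate 1 the log2 fold change was 0.22 (adjusted p = 0.835). Without RUNX1::ERG replicate 2 it was 1.31 (adjusted p = 1.2e-05) and without empty vector replicate 1 it was 1.19 (adjusted p = 1e-05), fits in which the lone library of a group is assumed to vary like the others. JUND was also called without a filter on low counts, at 0.86 (adjusted p = 4.3e-05), when 7.38% of all genes were called, although its groups overlapped. The value thus depended on the library and the setting, and over the alternatives that kept all 4 libraries the adjusted p ran from 4.3e-05 to 0.530.

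JUN and JUNB differed less. JUN, the founding member of the family and a strong activator (NCBI gene 3725, chromosome 1, 59242517 to 59249720, minus strand), had 63.2 and 34.7 normalized CPM with the empty vector and 72.7 and 48.1 with RUNX1::ERG. The ranges of the groups overlapped, with a log2 fold change of 0.30 (SE 0.28, edgeR adjusted p = 0.639). It was 0.80 without empty vector replicate 1 (adjusted p = 0.019), -0.07 with empty vector replicate 2 left out and -0.03 with RUNX1::ERG replicate 1 left out. No direction can be given for JUN. JUNB, which often opposes JUN (NCBI gene 3726, chromosome 19, 12902300 to 12904129, plus strand), had 54.6 and 65.9 normalized CPM with the empty vector and 90.0 and 69.4 with RUNX1::ERG. The groups did not overlap, by a narrow margin, at a log2 fold change of 0.40 (SE 0.18, 95% interval -0.00 to 0.81, edgeR adjusted p = 0.281). Leaving out each library in turn moved it between 0.20 and 0.56.

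Among the JUN family, JUND made up 67.0% and 58.7% of the per-kb level in empty vector replicates 1 and 2, and 74.4% and 64.7% in RUNX1::ERG replicates 1 and 2. JUNB made up 20.0% and 31.9% against 17.6% and 25.4%, and JUN 13.0% and 9.42% against 7.998% and 9.88%. The ranges of all 3 shares overlapped between the groups, and a shift in the make-up of the family was not tested.

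**Figure D2:**
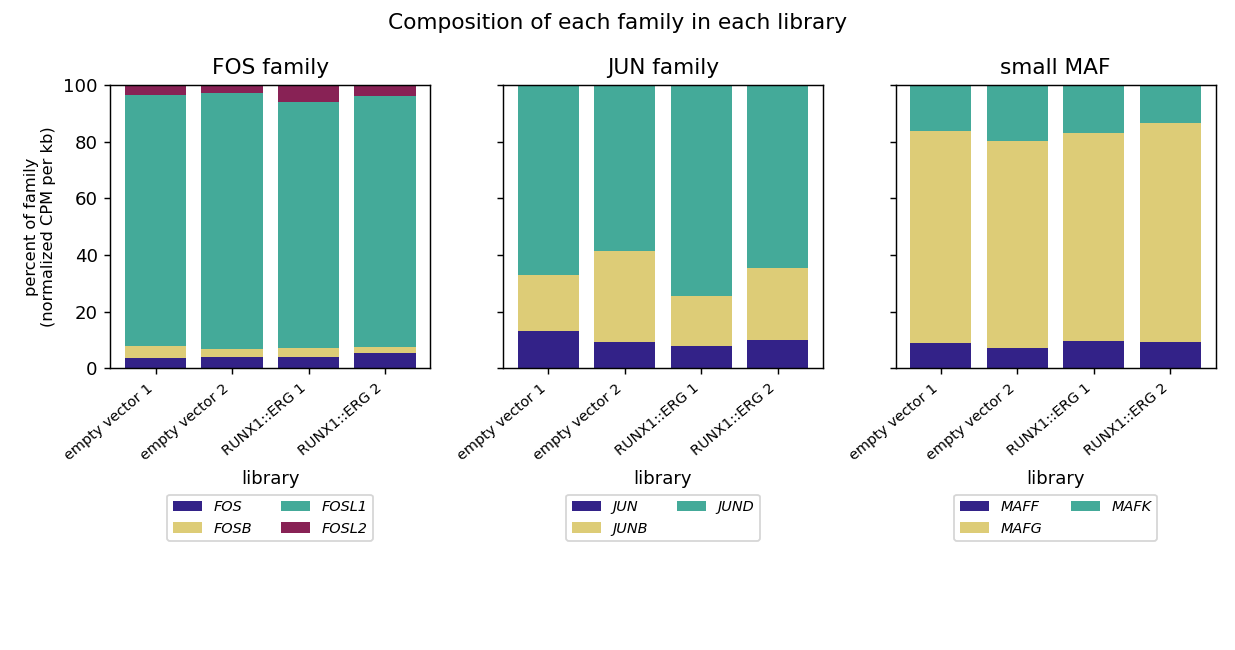
Share (percent of the family's summed normalized CPM per kb) of each gene within the FOS family, the JUN family and the small MAF genes, 1 stacked bar for each library. FOSL1 (86.9% to 90.4%), JUND (58.7% to 74.4%) and MAFG (72.8% to 77.2%) were the main members in each of the 4 libraries.

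In the FOS family, FOSL1 supplied nearly all of the mRNA. FOSL1, also named FRA1, lacks the strong activation domain of FOS (NCBI gene 8061, chromosome 11, 65659520 to 65668044, minus strand). It made up 88.6% and 90.4% of the family's per-kb level with the empty vector and 86.9% and 88.7% with RUNX1::ERG. FOSL1 had 21.6 and 38.0 normalized CPM in the controls, against 34.7 and 32.2 with RUNX1::ERG, so that both RUNX1::ERG libraries fell between the empty vector libraries. The log2 fold change was 0.17 (SE 0.25, 95% interval -0.38 to 0.71, edgeR adjusted p = 0.803), and it was -0.19 without empty vector replicate 1.

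FOS and FOSB, the fast and short-lived responders to serum, were scarce in each library. FOS (NCBI gene 2353, chromosome 14, 75745529 to 75748933, plus strand) had 68 and 148 counts with the empty vector and 164 and 172 with RUNX1::ERG, or 1.13, 2.10, 1.95 and 2.39 normalized CPM. Empty vector replicate 1 was the low library, and empty vector replicate 2 lay between the RUNX1::ERG libraries. Its log2 fold change of 0.42 (SE 0.39, edgeR adjusted p = 0.644) was 0.04 without empty vector replicate 1 and 0.94 without empty vector replicate 2. FOSB (NCBI gene 2354, chromosome 19, 45971253 to 45978437, plus strand) had 131 and 176 counts with the empty vector and 237 and 117 with RUNX1::ERG. The RUNX1::ERG libraries lay on either side of the empty vector libraries, with a log2 fold change of -0.07 (SE 0.36, edgeR adjusted p = 0.955). The 95% intervals of both genes, -0.44 to 1.28 for FOS and -0.87 to 0.73 for FOSB, include changes of more than 1.5-fold, so that such changes are not excluded.

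FOSL2, or FRA2, had the largest fitted difference of the 10 genes (NCBI gene 2355, chromosome 2, 28615315 to 28640184, plus strand). It had 209 and 333 counts with the empty vector and 799 and 409 with RUNX1::ERG, or 3.47, 4.72, 9.48 and 5.69 normalized CPM. Both RUNX1::ERG libraries were above both empty vector libraries, and RUNX1::ERG replicate 1 was the high one. The log2 fold change was 0.89 (SE 0.31, 95% interval 0.20 to 1.57, edgeR adjusted p = 0.150). It was 0.47 without RUNX1::ERG replicate 1 (adjusted p = 0.758), 1.19 without RUNX1::ERG replicate 2 (adjusted p = 0.043) and 1.13 without empty vector replicate 2 (adjusted p = 0.012). FOSL2 was also called without the filter on low counts, at 0.88 (adjusted p = 0.035). Its share of the FOS family's per-kb level was 3.61% and 2.85% with the empty vector and 6.02% and 3.97% with RUNX1::ERG.

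**Figure D3:**
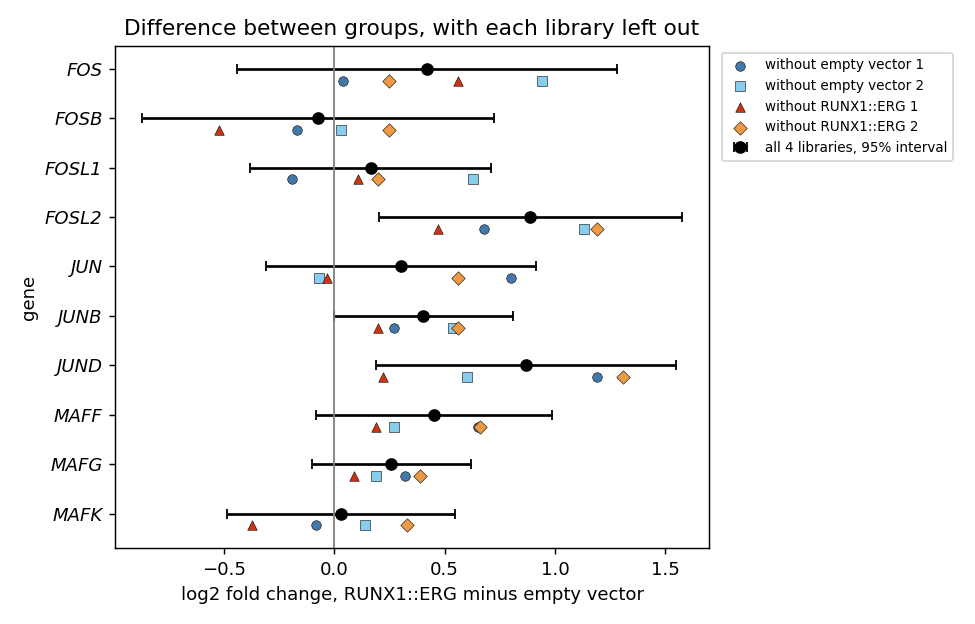
Log2 fold change of RUNX1::ERG minus empty vector for each of the 10 genes. Black points and bars are the fit to all 4 libraries with its 95% interval, and colored points are the fits that leave out 1 library. The points without RUNX1::ERG replicate 1 (red triangles) are lowest for FOSB, FOSL2, JUNB, JUND, MAFF, MAFG and MAFK, at 0.22 for JUND and 0.47 for FOSL2.

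Of the small MAF genes, MAFG was the main one, with 72.8% to 77.2% of the per-kb level across the 4 libraries. MAFG (NCBI gene 4097, chromosome 17, 79876146 to 79885611, minus strand) had 222 and 203 normalized CPM with the empty vector and 282 and 227 with RUNX1::ERG. Both RUNX1::ERG libraries were above both empty vector libraries, the lower of them by little. The log2 fold change was 0.26 (SE 0.16, 95% interval -0.10 to 0.62, edgeR adjusted p = 0.463), which is at most a 1.53-fold rise at the upper bound. MAFF, a stress-inducible member (NCBI gene 23764, chromosome 22, 38596774 to 38612514, plus strand), had 12.5 and 9.56 against 17.6 and 12.6 normalized CPM. RUNX1::ERG replicate 2 and empty vector replicate 1 were nearly equal, and the log2 fold change was 0.45 (SE 0.24, edgeR adjusted p = 0.372). MAFK (NCBI gene 7975, chromosome 7, 1570338 to 1582679, plus strand), the partner first purified with NFE2 in erythroid cells, had 32.0 and 37.1 against 43.9 and 26.7. Its groups overlapped, with RUNX1::ERG at both ends, and the log2 fold change was 0.03 (SE 0.23, 95% interval -0.48 to 0.55, edgeR adjusted p = 0.970).

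The counting strand is not given in the sources used here, and exons of 4 of the genes overlap another gene in the annotation. HOOK2 overlaps JUNB on the other strand and had 16.9 to 24.6 normalized CPM. PLA2G6 overlaps MAFF and TMEM184A overlaps MAFK, also on the other strand, with 4.38 to 9.13 and 0.0851 to 0.973 normalized CPM. SIRT7 overlaps MAFG on the same strand and had 43.3 to 69.4. None of these 4 neighbors passed the test, and the values of JUNB, MAFF, MAFG and MAFK are uncertain to the extent that reads of the shared stretches were assigned to either gene.

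The RUNX1::ERG libraries also differed from each other. In RUNX1::ERG replicate 1, 9 of the 10 genes were higher than in replicate 2, all but FOS, against 50.4% of all genes tested. The difference of replicate 1 minus replicate 2 had a median of 0.54 on the log2 scale over the 10 genes and was largest for JUND at 1.10, followed by FOSB at 0.79, FOSL2 at 0.74, MAFK at 0.72 and JUN at 0.60. The GC content of the transcript moved with this difference. Among tested genes in 3 groups of nearly equal size by GC content, the median of the same difference was -0.16 at 28.8% to 44.1% GC, -0.04 at 44.1% to 54.6% and 0.22 at 54.6% to 80.0%. The 10 genes had 52.8% (FOS) to 69.9% GC (JUND), and JUND had more GC than 99.5% of the tested genes. For the 150 tested genes within 2 percentage points of the GC content of JUND, the median difference between the RUNX1::ERG replicates was 0.53, against 1.10 for JUND. For FOSL2, with 53.3% GC, the 1756 tested genes of like GC content had a median of 0.04. With GC content and transcript length corrected for, the log2 fold change between the groups was 0.81 for JUND (adjusted p = 0.062) and 0.77 for FOSL2 (adjusted p = 0.192, both from edgeR). ERG was 2.52-fold and RUNX1 1.96-fold higher in the same replicate 1, and the part of GC content or of the amount of fusion transcript in these values was not tested.

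Promoter sequences are shown for the 3 genes whose promoters held a TRE or CRE in exact letters, which are the sites AP-1 dimers bind. RefSeq promoters (GRCh38.p14, 250 bases before to 50 after the start) were found for 8 of the 10 genes, with 9 starts. The searched letters were TGANTCA for the TRE, TGACGTCA for the CRE, TGCTGA for the outer part of a MAF site, GGAAGT for an Ets site and TGTGGT for a Runt site, on both strands, and the CArG box of serum response. The outer MAF letters can share bases with a TRE. Capitals mark the TRE or CRE in the sequences below, 5′ to 3′ on the strand of the gene. For JUND the stretch is chr19:18281623-18281872 (minus strand), for the TRE of FOSL2 chr2:28392854-28392876, and for MAFF chr22:38201744-38201993 (plus strand).
JUND: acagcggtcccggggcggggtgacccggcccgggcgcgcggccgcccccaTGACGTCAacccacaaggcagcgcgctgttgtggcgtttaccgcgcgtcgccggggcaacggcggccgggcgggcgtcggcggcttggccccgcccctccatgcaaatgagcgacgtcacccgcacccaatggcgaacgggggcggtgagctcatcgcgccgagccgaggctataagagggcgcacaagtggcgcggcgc
FOSL2 TRE: cattgtagTGACTCAtctcgggc
MAFF: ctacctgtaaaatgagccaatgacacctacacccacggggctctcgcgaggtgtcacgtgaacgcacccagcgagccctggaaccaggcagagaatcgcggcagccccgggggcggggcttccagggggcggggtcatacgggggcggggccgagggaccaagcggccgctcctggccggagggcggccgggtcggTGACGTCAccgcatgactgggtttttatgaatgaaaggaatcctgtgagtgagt

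The CRE letters were found in JUND, from 200 bases before the start, and in MAFF, from 54 bases before it, and 1.85% of all 35116 promoters held them. The TRE letters of FOSL2 begin 5 bases past the start, and 7.71% of all promoters held a TRE. The Ets letters were found in JUNB and FOSB, against 22.8% of all promoters. The Runt letters (13.1% of all promoters), the outer MAF letters (17.3%) and the CArG box (1.29%) were found in none of the 9. These letters describe the windows alone, and nothing in the counts measures binding.

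The partners with which these proteins form dimers were read from the same test, from lists chosen with earlier results of these data known. Of 7 ATF and BATF partners of JUN and FOS, 0 were called in either direction, against 4.79% of all genes tested. Their median log2 fold change was -0.01. BATF2, which pairs with JUN, was at 8.43 and 10.8 against 18.5 and 15.6 normalized CPM, with a log2 fold change of 0.82 (SE 0.22, edgeR adjusted p = 0.064), and it passed with the DESeq2 Wald test (adjusted p = 0.013), without the filter on low counts (adjusted p = 0.015) and without empty vector replicate 2 (adjusted p = 0.0077). JDP2, a repressor of AP-1, was at 3.95 and 0.567 against 0.463 and 0.459. Its log2 fold change of -2.28 (edgeR adjusted p = 0.108) rested on empty vector replicate 1 and was -0.30 without it, though JDP2 was called without empty vector replicate 2 (-3.10) or RUNX1::ERG replicate 2 (-2.28), without the filter on low counts (-2.29) and by the DESeq2 Wald test (-2.29). Of 6 CNC and BACH partners of small MAF, 0 were called, with a median of -0.22. The largest values of opposite sign were NFE2L2 (NRF2, the antioxidant activator) at -0.46 (adjusted p = 0.174) and BACH1 (the heme-sensing repressor) at 0.28 (edgeR adjusted p = 0.444). Summed small MAF mRNA was below that of NFE2 in each library, since NFE2 per kb was 3.14 and 3.53 times the small MAF sum with the empty vector and 2.37 and 2.98 times with RUNX1::ERG. MAFA, a large MAF factor with an activation domain, was at 0.332 and 0.581 against 1.41 and 0.988 normalized CPM (edgeR adjusted p = 0.149) and was called at a log2 fold change of 1.85 without empty vector replicate 2 and of 1.37 without the filter on low counts.

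Genes that act before AP-1 had no call in the edgeR test, in which 4.79% of all genes were called. Of 17 MAP kinase genes, 15 passed the filter and 0 were called, with a median log2 fold change of 0.07. The values ran from -0.32 for MAP2K3 to 0.61 for MAP3K5, a stress kinase that acts before JNK and p38 (edgeR adjusted p = 0.072). MAP3K5 was called by the DESeq2 Wald test (0.59, adjusted p = 0.029), without the filter on low counts (0.59, adjusted p = 0.035) and with the GC and length correction (0.61, adjusted p = 0.029). Of the 7 genes of SRF, its cofactors and CREB1, 0 were called, and the values ran from -0.30 for ELK3 (adjusted p = 0.674) to 0.51 for MRTFA (edgeR adjusted p = 0.155). Of 6 genes that act on JUN protein and its turnover, 0 were called, from -0.32 for DET1 to 0.15 for ITCH. Other immediate early genes, which answer to the same signals as FOS, were not called either in that test. Of 13, 9 passed the filter, with a median of 0.09, and the values ran from -0.96 for EGR3 (adjusted p = 0.371) to 0.67 for ZFP36 (edgeR adjusted p = 0.109). ZFP36 was called by the DESeq2 Wald test (0.65, adjusted p = 0.048), without the filter on low counts (0.66, adjusted p = 0.047) and without empty vector replicate 1 (0.77, adjusted p = 0.046).

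Genes known as AP-1 targets did not move one way. Of 23, 18 passed the filter on low counts. Of these, 1 was called higher and 1 lower, against 3.64% and 1.15% of all genes tested. The fitted log2 fold changes were above 0 for 9 and below 0 for 9, with a median of 0.03. VIM, the intermediate filament vimentin, fell from 706 and 827 normalized CPM to 312 and 365, a log2 fold change of -1.18 (SE 0.15, edgeR adjusted p = 0.0017). TGFB1, the growth factor TGF-beta 1, rose from 269 and 239 to 596 and 367, a log2 fold change of 0.92 (SE 0.21, edgeR adjusted p = 0.034). RUNX1::ERG replicate 1 was again the high library, and without it the log2 fold change of TGFB1 was 0.53 (adjusted p = 0.284). Of 11 antioxidant genes bound by small MAF with NRF2 or BACH1, MAFG itself included, 10 passed the filter and 0 were called, with a median of 0.02. SQSTM1, the autophagy receptor p62, was highest at 0.59 (adjusted p = 0.072), and SLC7A11, the cystine transporter, lowest at -1.91 (edgeR adjusted p = 0.098), which was -0.09 without empty vector replicate 1 and was called at -2.69 without empty vector replicate 2 and at -2.13 without RUNX1::ERG replicate 2. SLC7A11 was also called without the filter on low counts (-1.91, adjusted p = 7.8e-18). SQSTM1 was called by the DESeq2 Wald test (0.58, adjusted p = 0.042), without that filter (0.58, adjusted p = 0.015) and without empty vector replicate 2 (0.77, adjusted p = 0.010). All 3 megakaryocyte genes known as targets of NFE2 were called higher, against 3.64% of all genes tested. This list was written with earlier results of these data known, so the count cannot speak for NFE2 targets as a set. TUBB1, the platelet tubulin, had a log2 fold change of 1.09, TBXAS1, the thromboxane synthase, of 1.87 and RAB27B, which acts in granule release, of 2.36, with adjusted p-values of 0.0044, 0.0074 and 0.00055 from edgeR. TBXAS1 missed the threshold without RUNX1::ERG replicate 1, at 1.70 (adjusted p = 0.065). NFE2 itself was at 305 and 322 against 299 and 287 normalized CPM, a log2 fold change of -0.10 (edgeR adjusted p = 0.795).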

How the data were processed

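WTS was measured in K562 cells, 2 libraries for empty vector and 2 for RUNX1::ERG. As deposited, the values are read counts for each NCBI gene number without normalization, and the submitters' processing notes name HISAT2 2.2.1, featureCounts 2.0.1 and hg19. The annotation and strand setting are not given in the sources used here. A RefSeq gene table (GRCh38.p14) matched 92.2% of the gene numbers to symbols. Positions, lengths and GC content (of the MANE Select or else the longest transcript) come from GENCODE v44, GRCh37.

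Counts were fitted in R 4.3.3 with edgeR 4.0.16 (TMM, filter on low counts, quasi-likelihood test, no replicate block), and Benjamini-Hochberg adjustment ran over all 15394 genes tested. The standard error is the size of the log2 fold change over the square root of F. A count of 0 allows up to 3 counts, or 0.0364 to 0.0503 CPM, for counting error only. Other scalings and filters, DESeq2 1.42.0, limma 3.58.1 voom, a replicate block, halved counts and leaving out each library were alternatives, and the GC and length correction was added after the data were seen. All 10 genes are described, as are, from each other list, the called genes or else the largest rise and fall. NFE2 and the marker genes named fall outside this rule and were chosen after their values were seen. The counts of the large MAF list are not reported here. The genes and lists were chosen with earlier results of these data known. The fit was tested on simulated data with a dispersion of 0.04. It called 36% of genes with a true log2 fold change of -1 and 44% of those at 1. At -2 and 2 it called 100%, and of 15124 unchanged genes it called 3. A log2 fold change of 1 could thus be missed. The changed genes were drawn only from those above a set mean CPM. FOS and FOSB fall below that limit, so the shares called do not cover them.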

Additional observations from a re-analysis of the deposited data

How the results depend on the processing

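The number of AP-1 and MAF genes called was 0 with DESeq2 size factors, library totals alone, at least 10 counts in every library, halved counts, the DESeq2 Wald test, limma voom and the GC and length correction. It was 2 without the filter on low counts (FOSL2 and JUND) and 1 with the replicate block (11.3% of all genes; JUND, at 0.80, adjusted p = 0.0054), and 0 to 2 with each library left out. The block also called BATF2 (0.83, adjusted p = 0.024), MAP3K5 (0.60, adjusted p = 0.020), MRTFA (0.50, adjusted p = 0.046), ZFP36 (0.66, adjusted p = 0.029) and SQSTM1 (0.60, adjusted p = 0.019). No label ties a replicate number to a batch, and with 2 pairs the main test used no pairing. Across genes, deviations from the group means had r = 0.35 between libraries with the same number. Over all genes tested, 737 were called, against 1500 without the filter (64.1% higher), 1733 with the block (62.4% higher, against 76.0%), 1204 with DESeq2 and 286 to 1336 with a library left out. The log2 fold change of MAFK changed sign with the block (-0.01), limma voom (-0.0048) and the GC and length correction (-0.08). With each library left out, it ran from -0.37 to 0.33, that of FOSB from -0.52 to 0.25, of FOSL1 from -0.19 to 0.63 and of JUN from -0.07 to 0.80. The cause was not tested. Apart from leaving out a library, 84 values of the 10 genes changed neither sign nor call, 3 changed sign and 3 passed the threshold.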
